A study of Mus musculus with 6 samples.

Results

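The Slc25a genes encode the mitochondrial carriers, and 46 of them could be followed in sorted bone marrow progenitors, from mice lacking T-bet and from wild-type mice. Members were the genes whose only symbol in the array's annotation is Slc25a followed by a number, 46 of 22180 named genes, and each had a single probe set, a group of array probes read as 1 value. A further probe set shared by Slc25a35 and Rangrf was left out. The cells were megakaryocyte-erythroid progenitors (MEP), the marrow cells that give rise to red cells and platelets. They were stained with antibodies and sorted by flow cytometry from fresh marrow of T-bet knockout mice (3 arrays) and of wild-type mice (3 arrays), all labelled as C57BL/6. The transcription factor T-bet, the product of Tbx21, is best known from T helper and natural killer cells. The labels give the genotype, but not the knockout allele, the age or the sex of the mice, and describe each array of a group as a different mouse. All values are log2 signals, ± is the SD of a group's 3 arrays, and every difference is knockout minus wild type.

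Mitochondrial carriers are small proteins of the inner mitochondrial membrane that move metabolites, nucleotides, cofactors and metal ions between the cytosol and the mitochondrial matrix. A red cell precursor depends on several of them, because the first and last steps of heme synthesis take place in the matrix and need glycine and iron there. Slc25a37 (mitoferrin-1) is the main iron importer of erythroid cells, and Slc25a38 supplies glycine. Other members exchange ATP for ADP, feed the tricarboxylic acid cycle, or shuttle amino acids.

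The 6 arrays could not be fully matched to single mice. Xist, the RNA of the inactive X chromosome, read 11.83, 11.79 and 5.42 in knockout replicates 1 to 3, against 11.81, 12.21 and 5.56 in the wild-type arrays 1 to 3. The Y-linked gene Uty read 8.36, 8.47 and 9.74 in the knockout, against 8.68, 5.22 and 9.51 in wild type. Knockout replicates 1 and 2 and the first wild-type array therefore held both signals, so p-values below measure the spread between these 6 arrays, and results are also given with this difference in the fit or without those arrays. Tbx21 itself read 6.49 ± 0.10 in the knockout and 6.58 ± 0.04 in wild type (difference -0.09, SE 0.09, exact permutation p = 0.3), so it gave no check of the genotype. Array medians lay between 6.44 and 6.53. Of the erythroid genes examined, 7 of 9 lay outside the 30% of probe sets with the lowest mean, called dim here, among them Klf1 at 10.72 ± 0.04 in the knockout and 10.60 ± 0.11 in wild type. Of the megakaryocyte genes, 5 of 5 lay outside the dim 30%. Over all genes 26.5% were dim, against 22.2% of the erythroid genes. The dim share was 16.7% of granulocyte and monocyte, 20% of T and NK, 25% of B cell and 50% of macrophage genes. These counts therefore do not identify the cells. In bulk samples such as these, fewer cells of a type and less RNA per cell cannot be told apart.

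No carrier passed the test for a difference between knockout and wild-type progenitors. With limma and Benjamini-Hochberg adjustment over all 41345 probe sets, 0 of 46 members had an adjusted p under 0.05, as did 0% of all probe sets, and the adjusted p of every member was 1. At an unadjusted p under 0.05 there was 1 member, Slc25a33, lower in the knockout, which is 2.17% of the family, and 0 members with the replicate number as a block. Over all genes 3.13% passed that threshold, 1.7% lower and 1.44% higher in the knockout. The 46 differences ran between -0.23 and 0.18, with a median of -0.01, where the median of all genes was 0. Of the 46, 28 lay below 0 and 18 above.

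The arrays bounded the carrier differences closely, as they did for most genes. The 95% interval of the difference stayed inside a 2-fold difference up or down for 46 of 46 carriers, against 98.0% of all genes, and within 1.5-fold for 45 of 46 (97.8%), against 85.9% of all genes. The exception was Slc25a2, an ornithine carrier, with an interval of -0.54 to 0.59. Outside the dim 30% the narrower bound held for 44 of 45 carriers (97.8%), against 93.2% of all genes. These are bounds on signal, and a dim signal may show less than the full difference in RNA. The dim cut-off was a mean of 5.7, and 1 carrier, Slc25a31, was dim. Slc25a41 (5.81 in the knockout and 5.73 in wild type), Slc25a18 (5.94 and 5.76) and Slc25a54 (5.82 and 5.90) lay just above the cut-off. The spread between arrays was also small: the SD within groups had a median of 0.10 over the carriers, against 0.12 over all genes outside the dim 30%.

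**Figure D1:**
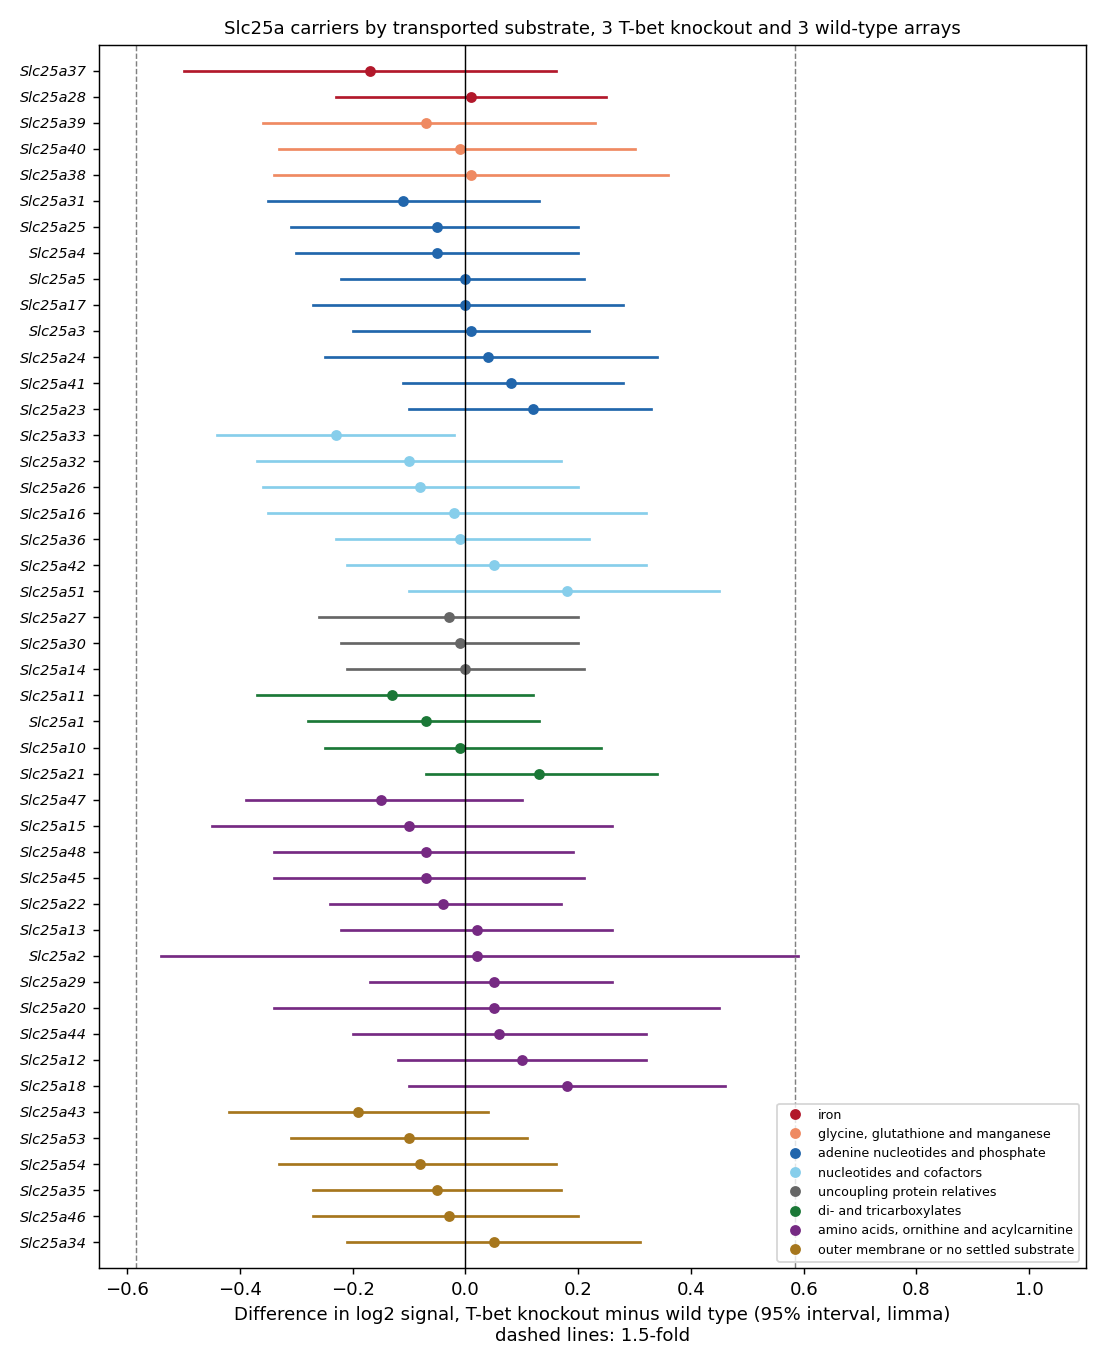
Difference in log2 signal (horizontal axis, T-bet knockout minus wild type) of each of the 46 carriers, grouped by what they transport; points are limma's estimates and bars their 95% intervals over 3 and 3 arrays. The intervals of 45 carriers lie inside the dashed lines at 1.5-fold, Slc25a2 has the widest interval, and that of Slc25a33 (-0.44 to -0.02) alone leaves out 0.

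The erythroid iron importer Slc25a37 read 8.75, 9.00 and 9.15 in the knockout, against 8.99, 9.30 and 9.13 in wild type. The groups overlapped, and the lowest value was that of knockout replicate 1. The difference was -0.17 (SE 0.14, 95% interval -0.50 to 0.16, limma adjusted p = 1, exact permutation p = 0.5). Leaving out knockout replicate 1 gave -0.06, and leaving out wild-type replicate 2 gave -0.09. A block for the sex-linked signal on each array gave -0.06. Wild-type replicate 2 is the only array with Xist alone, so that estimate too rests on the other arrays. Slc25a28 (mitoferrin-2), the iron importer found in most tissues, read 9.21, 9.26 and 9.36 in the knockout, against 9.14, 9.34 and 9.31 in wild type. Its groups overlapped almost completely, with a difference of 0.01 (SE 0.10, 95% interval -0.23 to 0.25).

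The glycine carrier Slc25a38, whose loss in humans causes a congenital sideroblastic anemia, read 9.55, 9.80 and 9.96 in the knockout, against 9.58, 9.75 and 9.95 in wild type. The values of same-numbered arrays lay within 0.05 of each other, while arrays of one group lay up to 0.41 apart. The difference between genotypes was 0.01 (SE 0.15, 95% interval -0.34 to 0.36, limma adjusted p = 1, exact permutation p = 0.9). Slc25a39 and Slc25a40 are a related pair linked to the import of glutathione into mitochondria. Slc25a39 read 9.69, 9.94 and 10.06 in the knockout, against 9.90, 9.93 and 10.06 in wild type (difference -0.07, SE 0.12). Slc25a40 read 7.89, 8.18 and 8.15 in the knockout, against 7.91, 8.12 and 8.24 in wild type (difference -0.01, SE 0.13). In all of these 5 carriers the group ranges overlapped.

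**Figure D2:**
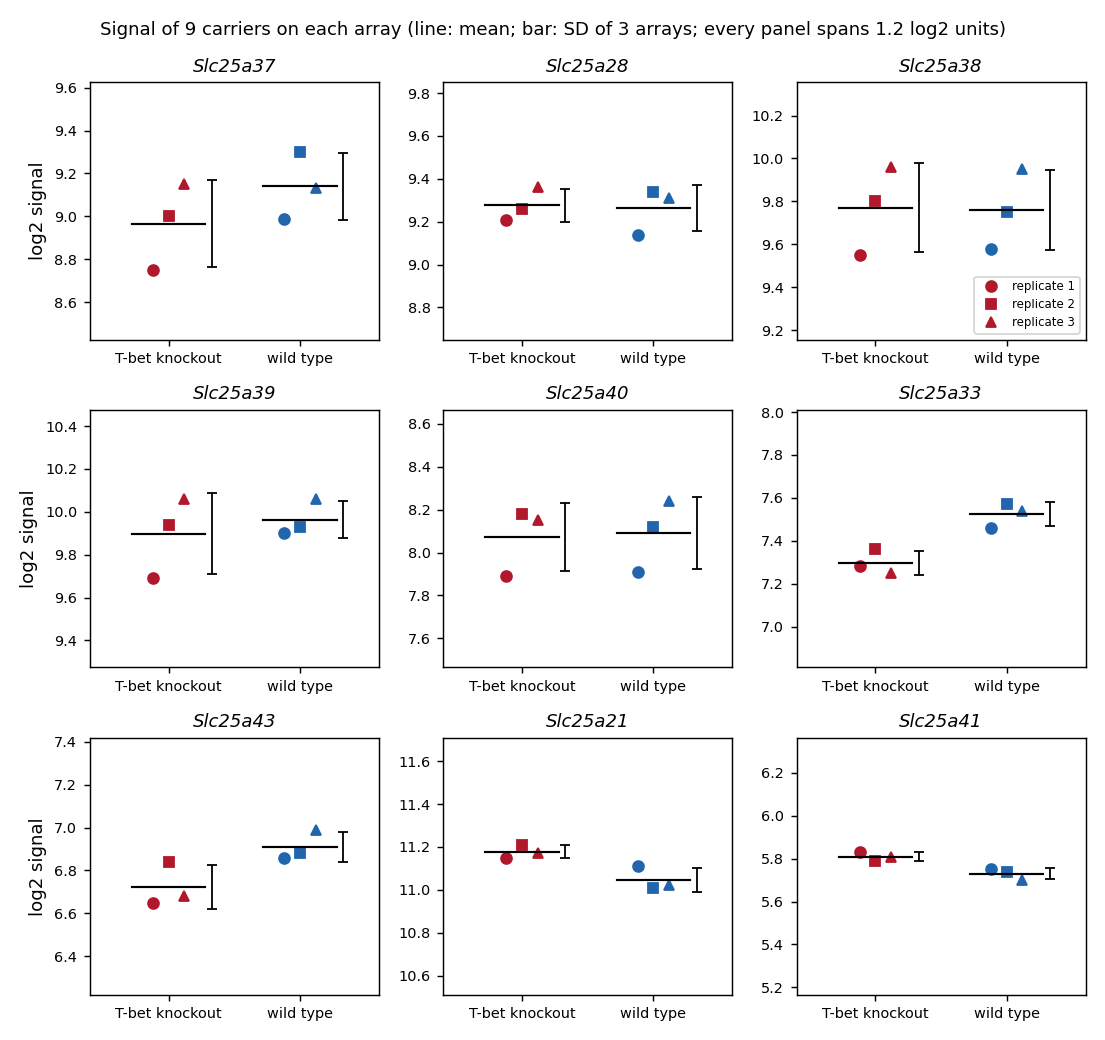
Log2 signal of 9 carriers on each of 3 T-bet knockout and 3 wild-type arrays; symbols mark the replicate number, lines the mean and bars the SD. The upper 5 carriers (Slc25a37, Slc25a28, Slc25a38, Slc25a39, Slc25a40) overlap between the groups, and the other 4 (Slc25a33, Slc25a43, Slc25a21, Slc25a41) do not.

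In 4 carriers the 3 knockout values lay all above or all below the 3 wild-type values. That is 8.70% of the family, the same as the 8.7% of all genes whose groups do not overlap. Lower in the knockout were 2 of the 4 (background 5.18%), and higher the other 2 (background 3.52%). With 3 arrays against 3 such a separation gives the smallest exact permutation p possible, 0.1.

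Slc25a33, a carrier of pyrimidine nucleotides, read 7.28, 7.36 and 7.25 in the knockout, against 7.46, 7.57 and 7.54 in wild type. Every knockout array lay below every wild-type array, by at least 0.10, and the SDs of 0.06 and 0.05 were smaller than the difference of -0.23 (SE 0.09, 95% interval -0.44 to -0.02, 0.855-fold, limma adjusted p = 1, unadjusted p = 0.0385). With the replicate number as a block in limma its unadjusted p was 0.0504, and leaving out any 1 array gave unadjusted p-values between 0.0506 and 0.109. By unadjusted p it ranked 481 among the 22180 genes. Its relative Slc25a36, which also carries pyrimidine nucleotides, read 8.93, 9.02 and 9.05 in the knockout, against 8.90, 9.02 and 9.09 in wild type, a difference of -0.01 (SE 0.09).

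Slc25a43, an X-linked carrier without a settled substrate, read 6.65, 6.84 and 6.68 in the knockout, against 6.86, 6.88 and 6.99 in wild type (difference -0.19, SE 0.10, limma adjusted p = 1). The groups were separated by 0.02 between the second knockout and the first wild-type array. On the X chromosome it directly neighbours Slc25a5, the adenine nucleotide translocase of dividing cells, which read 12.71, 12.79 and 12.81 in the knockout, against 12.72, 12.86 and 12.73 in wild type, a difference of 0.00. All 4 X-linked carriers, with Slc25a14 and Slc25a53, had differences between -0.19 and 0.00.

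Slc25a21, the oxodicarboxylate carrier, read 11.15, 11.21 and 11.17 in the knockout, against 11.11, 11.01 and 11.02 in wild type (difference 0.13, SE 0.08, 95% interval -0.07 to 0.34, limma adjusted p = 1). Slc25a41, an ATP-Mg/phosphate carrier, read 5.83, 5.79 and 5.81 in the knockout, against 5.75, 5.74 and 5.70 in wild type (difference 0.08, SE 0.08). On chromosome 17 Slc25a41 lies directly beside Slc25a23, a calcium-regulated carrier of the same substrate. Slc25a23 read 9.18, 9.11 and 9.22 in the knockout, against 9.13, 9.02 and 9.02 in wild type (difference 0.12, SE 0.09), and its groups overlapped because knockout replicate 2 lay below wild-type replicate 1.

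The other carriers of adenine nucleotides and phosphate lay close to 0. Slc25a4, the translocase of muscle and heart, differed by -0.05, the phosphate carrier Slc25a3 by 0.01, and the peroxisomal carrier Slc25a17 by 0.00. Slc25a24 and Slc25a25, further ATP-Mg/phosphate carriers, differed by 0.04 and -0.05. Slc25a31, the translocase of male germ cells, was dim and read 5.42, 5.36 and 5.52 in the knockout, against 5.43, 5.58 and 5.62 in wild type (difference -0.11, SE 0.10). Of the 9 carriers in this group, 0 reached an unadjusted p of 0.05 in limma.

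Among carriers of nucleotides and cofactors, Slc25a51, which brings NAD into the matrix, read 9.35, 9.57 and 9.63 in the knockout, against 9.43, 9.23 and 9.37 in wild type (difference 0.18, SE 0.11). Knockout replicates 2 and 3 were the highest arrays, while replicate 1 lay within the wild-type range. The folate and flavin carrier Slc25a32 differed by -0.10, the S-adenosylmethionine carrier Slc25a26 by -0.08, and Slc25a42, a carrier of coenzyme A, by 0.05. Slc25a16 differed by -0.02. Of the 7 measured carriers of this group, 1 (14.3%, against 3.13% of all genes) passed an unadjusted p of 0.05 in limma. It was Slc25a33, the only carrier of the family to do so.

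Carriers of di- and tricarboxylates link the tricarboxylic acid cycle to the cytosol. Slc25a11, which exchanges oxoglutarate for malate, read 9.35, 9.54 and 9.49 in the knockout, against 9.48, 9.60 and 9.69 in wild type (difference -0.13, SE 0.10). The knockout value was the lower one in each same-numbered pair, but the groups overlapped. Counting Slc25a11, 10 of 46 carriers were lower in all 3 pairs (21.7%, against 14.2% of all genes), Slc25a33 and Slc25a43 among them. Higher in all 3 pairs were 4 (8.70%, against 12.4%). The citrate carrier Slc25a1 differed by -0.07 and the dicarboxylate carrier Slc25a10 by -0.01. The relatives of the uncoupling proteins, Slc25a14, Slc25a27 and Slc25a30, differed by 0.00, -0.03 and -0.01.

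The 12 carriers of amino acids, ornithine and acylcarnitine and their relatives had a median of 0.02, with 7 above 0 and 5 below. Slc25a18, a glutamate carrier, read 6.00, 5.78 and 6.04 in the knockout, against 5.78, 5.88 and 5.62 in wild type (difference 0.18, SE 0.12). The second glutamate carrier, Slc25a22, differed by -0.04. Slc25a12, the aspartate-glutamate carrier of the malate-aspartate shuttle, read 10.57, 10.70 and 10.73 in the knockout, against 10.58, 10.61 and 10.51 in wild type (difference 0.10, SE 0.09), and its paralog Slc25a13 (citrin) differed by 0.02. These groups overlapped in each case.

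Slc25a47 read 6.98, 7.05 and 6.88 in the knockout, against 7.05, 7.06 and 7.24 in wild type (difference -0.15, SE 0.10). Of the difference in Slc25a47, most came from number 3, where the pair lay -0.36 apart, against -0.06 and -0.01 for numbers 1 and 2. Its direct neighbour on chromosome 12, the basic amino acid carrier Slc25a29, differed by 0.05. The ornithine carriers Slc25a15 and Slc25a2 differed by -0.10 and 0.02, the acylcarnitine carrier Slc25a20 by 0.05 and the branched-chain amino acid carrier Slc25a44 by 0.06. Slc25a45 and Slc25a48 both differed by -0.07. Slc25a2 had the largest SD of the family within groups, 0.35: it read 6.01, 6.14 and 6.86 in the knockout, against 6.21, 6.19 and 6.54 in wild type, with both number 3 arrays high.

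The remaining carriers have no settled substrate or lie in the outer membrane. Slc25a53 read 6.72, 6.64 and 6.65 in the knockout, against 6.81, 6.69 and 6.82 in wild type (difference -0.10, SE 0.09). Slc25a46, an outer membrane protein of mitochondrial fusion and fission, differed by -0.03. Slc25a54, next to Slc25a24 on chromosome 3, differed by -0.08, and Slc25a34 and Slc25a35 by 0.05 and -0.05. The chromosome of Tbx21, chromosome 11, holds 4 carriers, Slc25a10, Slc25a11, Slc25a35 and Slc25a39, whose differences lay between -0.13 and -0.01.

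The family's mean varied between the arrays of a genotype. Averaged over the 46, the deviation from each carrier's own mean was -0.09, 0.02 and 0.05 in knockout replicates 1 to 3, against -0.05, 0.02 and 0.06 in wild-type replicates 1 to 3. Both arrays numbered 1 were low and both numbered 3 were high. For 21 carriers (45.7%, against 22.3% of all genes) the lowest of the 6 values was on knockout replicate 1, and for 6 (13.0%, against 16.3%) on wild-type replicate 1. The highest value lay on knockout replicate 3 for 17 carriers (37.0%, against 21.5% of all genes) and on wild-type replicate 3 for 13 (28.3%, against 18.3%). Deviations from the group means correlated across the 46 carriers at r = 0.568, 0.152 and 0.350 between the arrays numbered 1, 2 and 3, as a description, since carriers are not independent replicates.

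**Figure D3:**
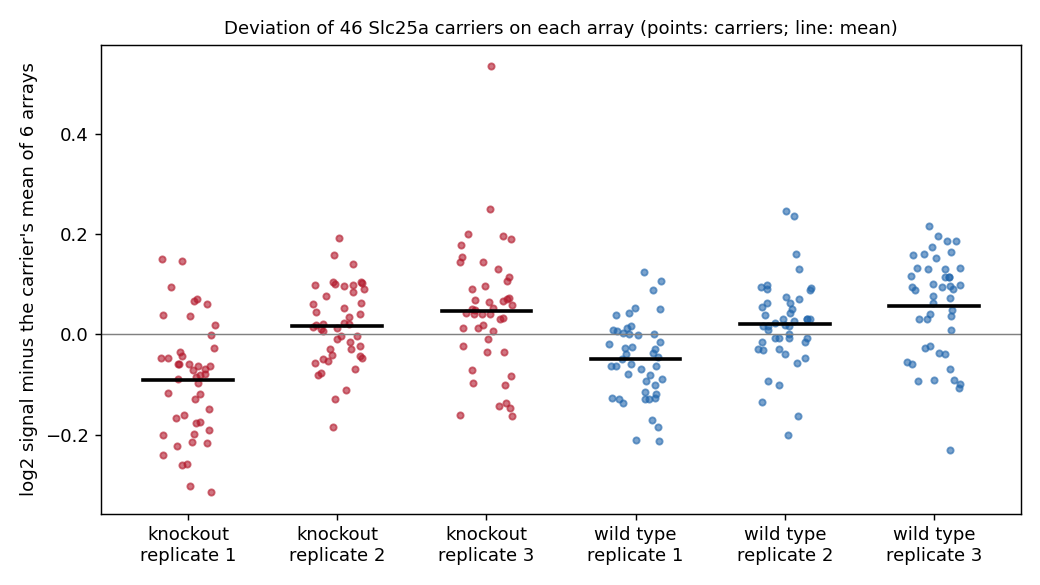
Deviation of each of the 46 carriers from its own mean over 6 arrays (vertical axis, log2 units), by array, with knockout arrays left of wild-type arrays; lines are the means. The means of knockout replicate 1 (-0.09) and wild-type replicate 1 (-0.05) lie lowest, and those of knockout replicate 3 (0.05) and wild-type replicate 3 (0.06) lie highest.

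Of the 5 lists of other mitochondrial genes, 4 also had the lowest mean of each genotype on the array numbered 1. The mean deviation of 12 genes of mitochondrial heme and iron-sulfur synthesis was -0.12, 0.03 and 0.11 in the knockout arrays, against -0.09, 0.05 and 0.01 in the wild-type arrays. That of the 13 genes of carrier import was -0.09, 0.02 and 0.03 in the knockout, against -0.11, 0.13 and 0.03 in wild type. The exception was the list of carrier-type genes with other names (4 measured), at -0.02, 0.07 and -0.15 in the knockout, against -0.02, 0.06 and 0.07 in wild type, where knockout replicate 3 was lowest. B cell markers deviated by 0.19, -0.19 and 0.45 in the knockout, against 0.01, -0.46 and 0.00 in wild type. Granulocyte and monocyte markers deviated by -0.09, -0.16 and 0.37 in the knockout, against -0.15, -0.14 and 0.18 in wild type. Erythroid markers deviated by -0.01, 0.04 and 0.08 in the knockout, against -0.04, -0.04 and -0.02 in wild type. Megakaryocyte markers deviated by -0.09, -0.27 and 0.06 in the knockout, against 0.02, -0.03 and 0.31 in wild type. In the granulocyte, megakaryocyte and erythroid lists the array numbered 3 was the highest of each genotype, as in the carriers. For the erythroid list the wild-type arrays barely differed. B cell markers were lowest on the arrays numbered 2. In the T and NK and the macrophage lists knockout replicate 1 was the highest of its genotype, at 0.16 and 0.12. The part of cell makeup, RNA quality or handling in the shared movement was not tested.

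Genes that work with the carriers gave no called difference either. Of the carrier-type genes with other names, 4 were measured and 0 passed limma's adjusted or unadjusted threshold; the uncoupling protein genes Ucp3 and Ucp1 differed by -0.26 and 0.06, and Mtch2, an insertase of the outer membrane, by -0.08. The import machinery that inserts carriers into the inner membrane had 13 measured genes and a median of -0.01, with 0 past either threshold. Its largest difference, -0.32 (SE 0.21), was that of Timm8a1, a small chaperone of the intermembrane space. It was followed by Timm10b at -0.10, and Timm8b differed by -0.08. Timm8a1 had 3 probe sets and Timm10b 2, and for each only the one with the highest mean was used. Other inner membrane transporters (13 measured, median -0.02) included the sideroflexins Sfxn3 and Sfxn2 at -0.09 and -0.06 and the sodium-calcium exchanger Slc8b1 at 0.07.

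The 12 measured genes of mitochondrial heme and iron-sulfur synthesis (15 listed) had a median of 0, with 6 above 0 and 6 below. Ppox and Fech, the last enzymes of heme synthesis, differed by 0.15 (SE 0.10) and 0.17 (SE 0.13), and Bola3 by -0.09. Regulators of mitochondrial biogenesis (11 genes, median -0.01) included the nuclear receptor gene Esrra at -0.10, Tfb1m at -0.08 and the polymerase gene Polg at 0.03. In limma 0 genes of these lists passed an adjusted or an unadjusted p of 0.05.

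Of the markers of blood cell types, 1 passed an unadjusted p of 0.05 (3.13% of all genes did): Itga2b, the megakaryocyte integrin chain, at -0.34 (SE 0.14, limma adjusted p = 1). The 5 measured megakaryocyte markers had a median of -0.19, with 4 below 0; Pf4 differed by -0.48, Vwf by -0.19, Gp9 by -0.02 and Ppbp by 0.02. Erythroid markers had a median of 0.11, with 8 of 9 above 0, and included Hbb-bh1 at -0.37, Epb42 at 0.25 and Hbb-y at 0.26. B cell markers (4 measured) included Cd79a at 0.56, Ighm (the highest of its 7 probe sets) at 0.64 and Cd79b at -0.01. T and NK cell markers (5 measured) included Cd4 at 0.27, Prf1 at 0.29 and Nkg7 at -0.28. Csf3r, S100a8 and Ctsg of the 6 granulocyte and monocyte markers differed by -0.19, 0.39 and 0.09. The macrophage genes C1qa, C1qc and Adgre1 differed by -0.31, -0.18 and 0.14. Of the markers named here, Hbb-bh1, Hbb-y, S100a8, C1qc and Adgre1 were dim. The part of these cells in the carrier values was not tested.

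Promoter sequence was available for 36 of the 46 carriers, from RefSeq on GRCm38.p6, and the 250 bases before each start site were searched on both strands. The 10 carriers without a window, among them the erythroid iron importer Slc25a37, were not searched. The T-box half-site GGTGTGA, the short core that T-box factors such as T-bet bind, occurred in 2 carriers (5.6%), Slc25a43 and Slc25a48. It occurred in 3.8% of all 27025 genes with such a window. For every motif here, all genes means that set, which was not limited to genes on the array. GATA hexamers, searched as AGATAA and AGATAG and, with another first base, as TGATAA and TGATAG, are the type of site read by the erythroid factor Gata1. They occurred in 6 carriers (16.7%), against 29.7% of all genes, with Slc25a28 among them. The E-box CACGTG, a site of Myc and related factors, occurred in 7 (19.4%), against 6.9% of all genes, with Slc25a33 among them. The ETS motif CCGGAAGT occurred in 1 (2.8%, against 3.2%) and the NRF1 motif in 2 (5.6%, against 4.2%). A match in these letters is not a bound site.

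Shown 5′ to 3′ on the gene's strand, with matches in capitals, are both carriers with the T-box half-site and the carrier of smallest p. Also shown is Slc25a28, the iron importer that could be searched, which has a GATA hexamer. Slc25a43 lies at chrX:36743382-36743631 (+), with a GATA hexamer and a T-box half-site. Slc25a48 lies at chr13:56438105-56438354 (+), with a T-box half-site on the other strand. Slc25a33 lies at chr4:149774268-149774517 (-), with an E-box. Slc25a28 lies at chr19:43674882-43675131 (-), with a GATA hexamer on the other strand.
Slc25a43: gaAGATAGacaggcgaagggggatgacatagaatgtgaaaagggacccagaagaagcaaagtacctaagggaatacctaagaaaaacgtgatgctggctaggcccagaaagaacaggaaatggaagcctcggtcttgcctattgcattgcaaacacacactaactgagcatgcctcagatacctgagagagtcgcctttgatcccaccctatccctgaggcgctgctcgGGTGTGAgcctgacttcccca
Slc25a48: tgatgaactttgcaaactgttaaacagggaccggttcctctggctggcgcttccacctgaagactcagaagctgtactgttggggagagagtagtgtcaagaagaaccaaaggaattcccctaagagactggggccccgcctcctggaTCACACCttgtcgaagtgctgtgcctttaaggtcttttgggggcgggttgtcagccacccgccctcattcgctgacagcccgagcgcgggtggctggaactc
Slc25a33: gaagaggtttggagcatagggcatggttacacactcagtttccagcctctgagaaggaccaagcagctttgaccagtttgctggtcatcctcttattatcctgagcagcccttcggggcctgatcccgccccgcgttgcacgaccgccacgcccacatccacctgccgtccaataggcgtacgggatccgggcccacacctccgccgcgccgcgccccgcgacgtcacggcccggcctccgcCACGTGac
Slc25a28: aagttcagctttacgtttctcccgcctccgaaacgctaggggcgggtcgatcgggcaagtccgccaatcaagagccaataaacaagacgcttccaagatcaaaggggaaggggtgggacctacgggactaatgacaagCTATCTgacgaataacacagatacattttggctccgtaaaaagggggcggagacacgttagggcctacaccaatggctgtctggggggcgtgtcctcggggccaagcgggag
Of the carriers with the T-box half-site, Slc25a43 differed by -0.19 (SE 0.10) and Slc25a48 by -0.07 (SE 0.11), and in limma neither passed the adjusted threshold.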

How the data were processed

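Total RNA of the sorted cells was made into biotin-labelled cRNA and hybridised to Affymetrix arrays, per the labels' protocols. The deposited values are log2 signals, 1 for each probe set on each array. Per the submitters' processing notes the authors used Affymetrix Expression Console 1.4.1.46, with settings not given in the sources used here. That the scale is log2 was read from the values. No scanner values or detection calls were used here, and the number of arrays limits the precision.

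Names came from the array's annotation, which gave 1 symbol to 23521 of 41345 probe sets, updated by gene ID through RefSeq (GRCm38.p6; 23328 matched); the probe set with the highest mean stood for a gene. Differences were fitted with limma 3.58.1 (lmFit, eBayes) in R 4.3.3 on all probe sets, which could include control probe sets. Exact permutation tests were 2-sided. On simulated data of 41345 probe sets, 8 of 50 changes of 1.5-fold, 25 of 50 of 2-fold and 46 of 50 of 4-fold were recovered.

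The members, gene lists and tests were chosen with earlier results of these data known. Genes were named by rule: Tbx21, the 5 iron, glycine and glutathione carriers, the 12 members of smallest p with all values, other members by difference, and 3 genes of smallest p per list. Slc25a41, Slc25a36, Slc25a5 and Slc25a2 were given in full, and Gp9 and Ppbp named, after their values were seen. Replicate numbers, which the labels give without a meaning, were taken as pairs because same-numbered deviations correlated at 0.285, 0.116 and 0.115 over all genes. Alternatives were a replicate block, other scalings, array weights, limma-trend, a dim filter, a block for sex-linked signal (both, Xist alone or Y-linked alone, split at a log2 signal of 7), other probe set choices, and leaving arrays out.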

Additional observations from a re-analysis of the deposited data

How the results depend on the processing

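Under 17 alternatives the median difference stayed between -0.06 and 0.02. In those with more than 1 array per group, 0 carriers passed a limma adjusted p of 0.05, with a smallest adjusted p of 0.705. The count at an unadjusted p under 0.05 was 1 in the report. It was 0 with the replicate block (3.63% of all genes passed), with arrays centred on their median (2.83%) and with the sex-linked block (3.07%). Every fit that left out 1 array also gave 0, with 1.84% to 4.86% of all genes passing. Removing the 3 arrays that held both sex-linked signals, a setting chosen after seeing the data, left 1 knockout array, so no count is given. With limma-trend the count was 2, Slc25a33 and Slc25a21, where 2.25% of all genes passed. Slc25a21 was higher in the knockout (limma-trend unadjusted p = 0.0423). Without both arrays numbered 1, a setting also chosen after seeing the data, the count was 1 (3.94% of all genes passed). That carrier was Slc25a51, higher by 0.31 in the knockout (limma unadjusted p = 0.0463). The replicate block gave the 1 member lost, Slc25a33, an unadjusted p of 0.0504 at the same difference of -0.23, and changed no other call. Over all alternatives Slc25a33 stayed between -0.30 and -0.20.

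Carriers with groups that do not overlap numbered 4 to 12 when 1 array was left out, 18 without both arrays numbered 1 (added after seeing the data) and 37 without the 3 arrays with both signals; fewer arrays make separation easier. Slc25a38 lay between -0.08 and 0.12 when 1 array was left out, and Slc25a37 between -0.26 and -0.06. Values close to 0 changed sign. Slc25a28 lay between -0.05 and 0.05 leaving out 1 array, and at -0.02 without the arrays numbered 1. Slc25a39 lay between -0.15 and 0.04 leaving out 1 array. It lay at 0.07 without the 3 arrays with both sex-linked signals, which left 1 knockout array. Slc25a40 lay between -0.11 and 0.08 leaving out 1 array, at 0.02 with array weights and at 0.04 with the sex-linked block. The cause was not tested. Without scanner values, how far each signal stood above background is unknown here.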
